A study of Bos taurus with 60 samples.

Results

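The genes described here are those that the study's pathway tables place under the KEGG terms for focal adhesion, tight junction, adherens junction and the regulation of the actin cytoskeleton, in the bovine mammary gland around dry-off. The tables were made from the genes that the study called differentially expressed at D3 vs. D-3 and at D7 vs. D3, where D is the day relative to dry-off, so the members were chosen by their values in those comparisons. Of 96 symbols listed, 6 were left out by the rule and 90 were kept, 56 listed for D3 vs. D-3 only, 15 for D7 vs. D3 only and 19 for both. The gene tables paired 70 of the 90 with a locus, out of 25223 loci counted. The other 20 symbols have no values here, and they include several central names of the pathway, among them the focal adhesion kinase PTK2, talin TLN1, the junction protein CTNNB1 and the integrin subunit ITGB4. Of the 70 paired genes, 69 had at least 1 CPM (reads of a locus scaled to a common library size) in at least 6 libraries and were tested among 14714 loci. The exception was ACTN2, the alpha-actinin of muscle, with 0 to 32 reads per library and a median of 8.

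Actin monomers join into filaments that give a cell its shape and, together with myosin, its tension. Profilins and thymosin hold monomers, the Arp2/3 complex starts branches, cofilins cut filaments, and the small GTPase Rac directs where this happens. Integrins tie the filaments to the matrix at focal adhesions, while catenins, nectins and claudins tie neighbouring cells together. In the mammary gland, the junctions close the alveolar lumen during lactation, and myoepithelial cells around the alveoli contract with a smooth muscle set of actin and myosin to eject milk.

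Mammary biopsies came from 12 multiparous Holstein cows in late gestation, with a biopsy of each before dry-off (D-3) and 4 in the dry period (D3, D7, D14, D25), and this gave 60 libraries. During the dry period 6 cows were cooled with fans and soakers in addition to shade (CL), and 6 heat-stressed cows (HT) had shade alone. The D-3 biopsies precede both treatments, so HT and CL at D-3 are cows named by their later treatment. A biopsy holds all cell types of the gland, so fewer cells of a type and less RNA per cell cannot be told apart.

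Total counts per library ranged from 20525083 to 26183990. The share of counts on the milk protein genes CSN1S1, CSN2 and LALBA ranged from 0.191% to 49.8% at D-3 and was 40.2% to 49.8% in 5 of the 12 cows, but was at most 7.45% at D3. The D14 library of CL cow 7965 stood apart. The summed level of the epithelial keratins KRT7 and KRT19 was 6.19 CPM in it and 512 to 2380 CPM in the other 11 D14 libraries, and the fibroblast gene DCN reached 5396 CPM against 561 to 1559 CPM. In that library 27 members lay above and 12 below the range of the other 11, and the same held for 23.3% and 24.4% of all tested loci. The early libraries of the HT cows 8513 and 8660 resembled the late libraries of the other cow more than their own. Deviations from the mean of the 6 HT cows of a day correlated at 0.367 and 0.510 between 8513 and 8660, and at -0.102 and 0.12 within each. Both are HT cows, so an exchange between them leaves the HT and CL groups as they are. It would change the within-cow numbers of D14 vs. D7 and of the late days against D-3, and none within the early or the late days.

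Most members had their highest mean level at D3. This held for 49 of the 69, while 12 peaked before dry-off and 2, 4 and 2 on the later days. At D3 vs. D-3, 40 members were upregulated and 10 downregulated at a false discovery rate (FDR) of at most 0.05 in edgeR's quasi-likelihood test, and the median log2 fold change was 0.39. Over all loci 15.1% passed, 6.03% upward and 9.04% downward. At D7 vs. D3, 22 members passed, all of them downward, where 2.92% of all loci passed and 2.3% did so downward, and the members' median was -0.32. These 2 comparisons chose the members, so the counts describe the choice and carry no test. With library sizes alone in place of TMM factors, 50 members passed at D3 vs. D-3, none of them downward, while the median log2 fold change was 0.35 over all loci and 0.70 over the members, and 2 passed at D7 vs. D3. The fit had no block for the cow. With it, 60 members passed at D3 vs. D-3 (46 upward and 14 downward) and 33 at D7 vs. D3 (4 and 29), the reported calls among them, and with the late libraries of 8513 and 8660 exchanged as well, 36 at D7 vs. D3. In a fit of only the 24 samples of the days compared, 24 and 16 passed. Members said below not to pass are those of the fit without the block, and with it CAPN2, CYFIP2, EZR, F11R, LIMK2, MAPK8, MYLK, NLK and PIKFYVE also passed at D3 vs. D-3, and CAPN2, CTNND1, GNA13, INSR, IQGAP3, LAMB1, MYH7, PIK3R2, PPP1CB, SSX2IP and ZYX at D7 vs. D3. Leaving out CL cow 8564 left 32 members at D3 vs. D-3 and 4 at D7 vs. D3. Leaving out cow 8647 left 32 and 10, and without 8541, 8713 or 8660 the number at D7 vs. D3 was 10, 11 or 12.

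**Figure D1:**
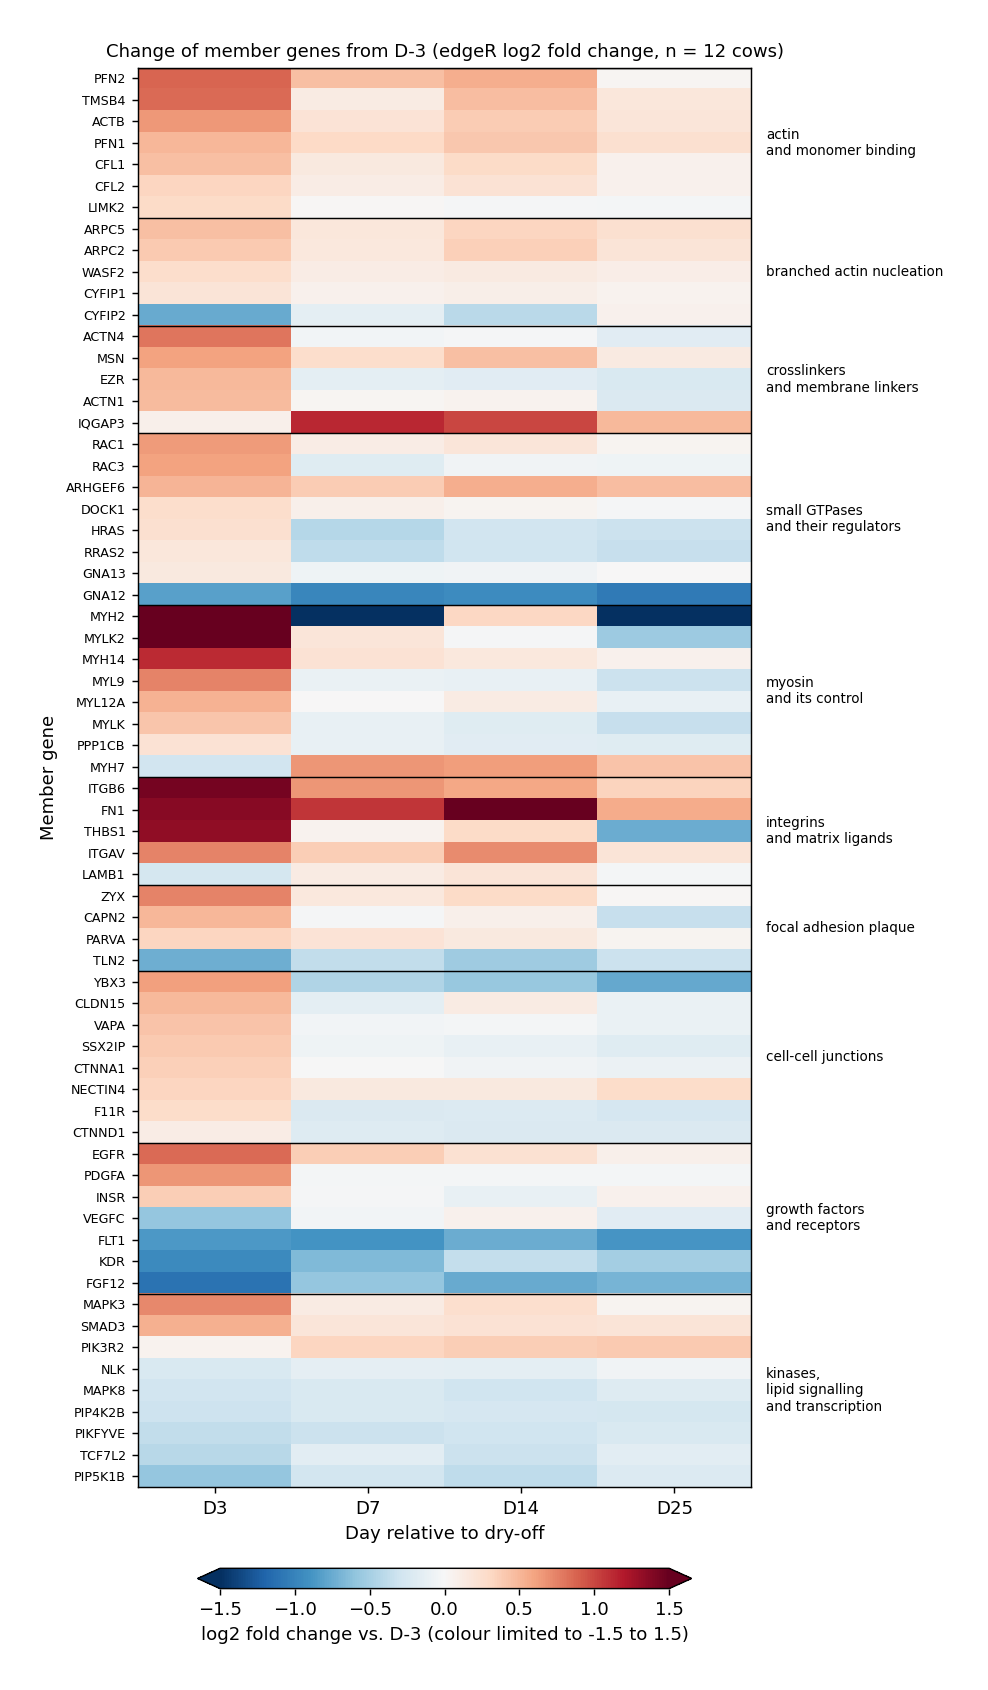
Colour gives the edgeR log2 fold change of each of 66 tested members (rows, grouped by role) at D3, D7, D14 and D25 against D-3 (columns), over 12 cows. Red is higher than D-3 and blue is lower, and most rows are reddest in the D3 column, while the vascular receptors FLT1 and KDR, the G protein gene GNA12 and the lipid kinase genes are blue there.

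The threshold fell between close values. YBX3, the last member inside it at D3 vs. D-3, had a log2 fold change of 0.62 ± 0.22 (SE) with an FDR of 0.0474, and CAPN2, the first outside, had 0.50 ± 0.18 with 0.0539. At D7 vs. D3 MYLK was just inside at -0.53 ± 0.16 with an FDR of 0.0484, and SSX2IP just outside at -0.46 ± 0.14 with 0.0506.

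The cows differed in how many members were higher at D3 than at D-3. The number ranged from 25 of 69 in CL cow 8686 to 54 in CL cows 8564 and 8603, and the median within-cow difference in log2 CPM ranged from -0.08 to 0.996. In cows 8513, 8668 and 8686 the median difference was -0.01, -0.03 and -0.08. The 5 cows with over 40% milk protein counts at D-3 had 43 to 54 members higher at D3 with medians of 0.23 to 0.996, and the other 7 had 25 to 54 with medians of -0.08 to 0.57. The part of the milk protein counts in this difference was not tested. At D3 vs. D-3, 7 members were higher and 4 lower in at least 11 of 12 cows (2.62% and 3.38% of all loci), and at D7 vs. D3 3 were higher and 22 lower (2.52% and 2.55%). The median coefficient of variation of the members was 27.4% before dry-off, 30.7% at D3 and 17.7%, 25.3% and 19.0% on the 3 later days, and 28 of 69 members had their largest at D3 and 22 at D-3. On the log2 scale the median SD between cows was 0.40 for the members and 0.47 for all loci at D-3, and 0.43 for both at D3.

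Actin and its monomer binding partners all had positive log2 fold changes at D3 vs. D-3, and 6 of 7 passed. ACTB, the cytoplasmic beta-actin, had a lowest, median and highest level of 811.9, 1130 and 1929 CPM at D-3, of 1139, 1759 and 3832 CPM at D3, and of 1087, 1424 and 2098 CPM at D7. It was higher at D3 than at D-3 in 9 of 12 cows and lower at D7 than at D3 in 10, with ranges that overlapped between all 3 days. Of the profilins, which load actin monomers onto growing filaments, PFN1 was 1.41-fold and PFN2 1.84-fold higher at D3 vs. D-3. PFN2 ran from a median of 31.2 CPM at D-3 to 68.5 CPM at D3 and 33.5 CPM at D25. The cofilin genes CFL1 and CFL2, whose products sever filaments, were 1.36-fold and 1.25-fold higher, though the CFL2 locus also takes in SNX6, so its reads cannot be assigned to either. TMSB4, a thymosin beta-4 gene with medians of only 3.32 CPM at D3 and 2.58 CPM at D7, was lower at D7 than at D3 in all 12 cows. LIMK2, the kinase that switches cofilin off, had a log2 fold change of 0.29 ± 0.13 at D3 and did not pass.

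The genes of branched nucleation moved by smaller amounts but in most cows. ARPC5, a subunit of the Arp2/3 complex, had a lowest, median and highest level of 142.3, 241.6 and 264.4 CPM at D-3 and of 254.9, 291.7 and 405.0 CPM at D3. It was the only member higher at D3 in all 12 cows, by 1.36-fold. ARPC2, another subunit, was higher in 11 cows by 1.32-fold, and WASF2, which activates the complex, by 1.20-fold in 9. The pair CYFIP1 and CYFIP2, which both encode a subunit of the WAVE complex around WASF2, took opposite directions. CYFIP1 went from a median of 158.3 to 177.0 CPM, a log2 fold change of 0.19 ± 0.06 that passed. CYFIP2 went from 168.5 to 75.6 CPM and was lower in 10 of 12 cows, with -0.76 ± 0.31, which did not pass, while the fit with the cow as a block gave -0.91 ± 0.27 and an FDR of 0.0128. With library sizes alone CYFIP2 had -0.31 ± 0.35 and an FDR of 0.497. Its levels at D3 ranged from 50.8 to 281.5 CPM. The CYFIP2 median was 155.4 CPM at D25.

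Among crosslinkers and membrane linkers, ACTN4 and ACTN1, the non-muscle alpha-actinins that bundle filaments, were 1.75-fold and 1.39-fold higher at D3. ACTN4 had a lowest, median and highest level of 145.3, 317.5 and 635.7 CPM at D-3, 208.4, 563.4 and 1107 CPM at D3 and 204.0, 312.3 and 478.2 CPM at D7. All but 1 cow were lower at D7 than at D3, while its levels at D-3 and D7 covered much the same range. Ezrin and moesin fasten filaments to the plasma membrane. Both genes were lower at D7 than at D3, EZR in 11 of 12 cows by 1.54-fold and MSN in 9 by 1.27-fold. The log2 fold changes were -0.62 ± 0.18 and -0.34 ± 0.14, of which EZR alone passed. A difference between the genes was not tested. IQGAP3, a scaffold known from proliferating cells, took another course. Its log2 fold change was 0.08 ± 0.36 at D3 vs. D-3 and 1.05 ± 0.37 at D7 vs. D3, where 11 of 12 cows were higher and it did not pass. The locus of IQGAP3 joins several gene identifiers, so its level is uncertain.

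The GTPases and their regulators held both directions. RAC1, the ubiquitous Rac, had a lowest, median and highest level of 77.4, 103.3 and 158.3 CPM at D-3 and of 101.4, 144.7 and 282.3 CPM at D3, a 1.56-fold difference. RAC3 was 1.52-fold higher at D3, and both were lower at D7, RAC1 in 11 cows and RAC3 in 10. HRAS and RRAS2, the first a proto-oncogene and the second its relative, were listed for D7 vs. D3 only, and there HRAS was 1.58-fold lower in 12 of 12 cows and RRAS2 1.47-fold lower in 7. DOCK1, another Rac activator, was 1.20-fold higher at D3 in 10 cows. ARHGEF6, an exchange factor that activates Rac, was higher at D3 in 11 cows by 1.43-fold and had a log2 fold change of 0.47 ± 0.14 at D25 vs. D-3.

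The paralogs GNA12 and GNA13 encode the G protein alpha subunits that pass receptor signals to the cytoskeleton. GNA12 had a lowest, median and highest level of 45.3, 87.2 and 370.2 CPM at D-3 and of 56.1, 77.1 and 134.0 CPM at D3. It was lower at D3 in only 7 of 12 cows, although it passed with a log2 fold change of -0.81 ± 0.24. With library sizes alone the value was 0.05 ± 0.14 and did not pass, where the median over all loci was 0.35. In the 5 D-3 libraries with over 40% milk protein counts GNA12 stood at 146.8 to 370.2 CPM, and in the other 7 at 45.3 to 97.3 CPM, so the high values at D-3 all came from libraries rich in milk protein reads. GNA12 remained near its D3 level at D25, with 51.6, 67.5 and 101.2 CPM. GNA13 had log2 fold changes of 0.15 ± 0.07 at D3 and -0.21 ± 0.07 at D7 vs. D3, and passed at neither without the cow block.

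The myosin group had the widest range of fold changes. MYL9, the smooth muscle regulatory light chain, had a lowest, median and highest level of 62.1, 144.9 and 345.2 CPM at D-3, 109.4, 215.4 and 449.8 CPM at D3 and 85.5, 132.4 and 258.6 CPM at D7. The related MYL12A was 1.44-fold higher at D3 and 1.43-fold lower at D7. Both light chains were higher at D3 in 10 cows and lower at D7 in 11. Light chains are phosphorylated by myosin light chain kinase, and MYLK, its smooth muscle and non-muscle gene, was 1.45-fold lower at D7 vs. D3, after a log2 fold change of 0.42 ± 0.16 at D3 that did not pass. MYLK2, the skeletal muscle kinase gene, was scarcely read, with medians of 0.698 CPM at D-3, 2.27 CPM at D3 and 0.883 CPM at D7, and its D3 levels ran from 0.357 to 9.00 CPM.

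The 3 heavy chain genes of the group, MYH14, MYH2 and MYH7, did not move alike. MYH14, a non-muscle heavy chain gene, went from a median of 45.3 CPM at D-3 to 100.7 CPM at D3 and 57.2 CPM at D7, and 11 of 12 cows were lower at D7 than at D3. MYH2, a fast skeletal muscle heavy chain gene, had medians of 0.571, 3.65, 0.147, 0.134 and 0.0600 CPM from D-3 to D25 and a highest level of 16.7 CPM at D3. It was higher at D3 in 10 cows and lower at D7 in 11, the largest fitted changes of any member. MYH7, the slow muscle and cardiac gene, had medians of 0.333, 0.230 and 0.689 CPM at D-3, D3 and D7, and passed in neither comparison without the cow block. No gene of the skeletal muscle marker list could be paired with a locus, so whether muscle fibres were in the biopsies was not tested. PPP1CB, a phosphatase subunit that removes the light chain phosphate, had a log2 fold change of -0.32 ± 0.11 at D7 vs. D3 that did not pass, and its locus also covers SPDYA.

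Integrins and matrix ligands had the largest median of any group at D3 vs. D-3, a log2 fold change of 1.20, with 5 of 6 upward past the threshold. ITGB6, the integrin beta subunit of remodelling epithelium, had a lowest, median and highest level of 17.4, 107.4 and 665.6 CPM at D-3 and of 90.7, 389.5 and 748.4 CPM at D3. It was higher at D3 than at D-3 in 9 cows, with ranges that overlapped. Its partner subunit ITGAV was 1.67-fold higher in 10 cows. LAMB1, a laminin beta chain, ran the other way, lower at D3 in 10 cows and higher at D7 than at D3 in all 12, by 1.31-fold. It passed in neither comparison without the cow block. With the cow as a block D7 vs. D3 gave 0.38 ± 0.11 on the log2 scale and an FDR of 0.0341. With library sizes alone LAMB1 had 0.20 ± 0.19 at D3 vs. D-3 and 0.43 ± 0.19 at D7 vs. D3, without passing. Its lower level at D3 thus depended on the scaling.

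Thrombospondin 1 and fibronectin, secreted matrix proteins that cells grip, were both high at D3 and parted afterwards. THBS1 had a lowest, median and highest level of 101.4, 180.3 and 1059 CPM at D-3, 160.1, 795.2 and 2328 CPM at D3 and 162.7, 335.4 and 671.2 CPM at D7. It was higher at D3 in 9 of 12 cows and lower at D7 in 11, and its D7 levels lay within the D-3 range. FN1 had 153.0, 532.7 and 1116 CPM at D-3, 435.1, 1059 and 2920 CPM at D3 and 566.4, 1033 and 1824 CPM at D7. Its median was 1059 CPM again at D14 and 700.0 CPM at D25, and it was lower at D7 than at D3 in only 7 of 12 cows. The single highest FN1 level, 7352 CPM, was in the D14 library of cow 7965.

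**Figure D2:**
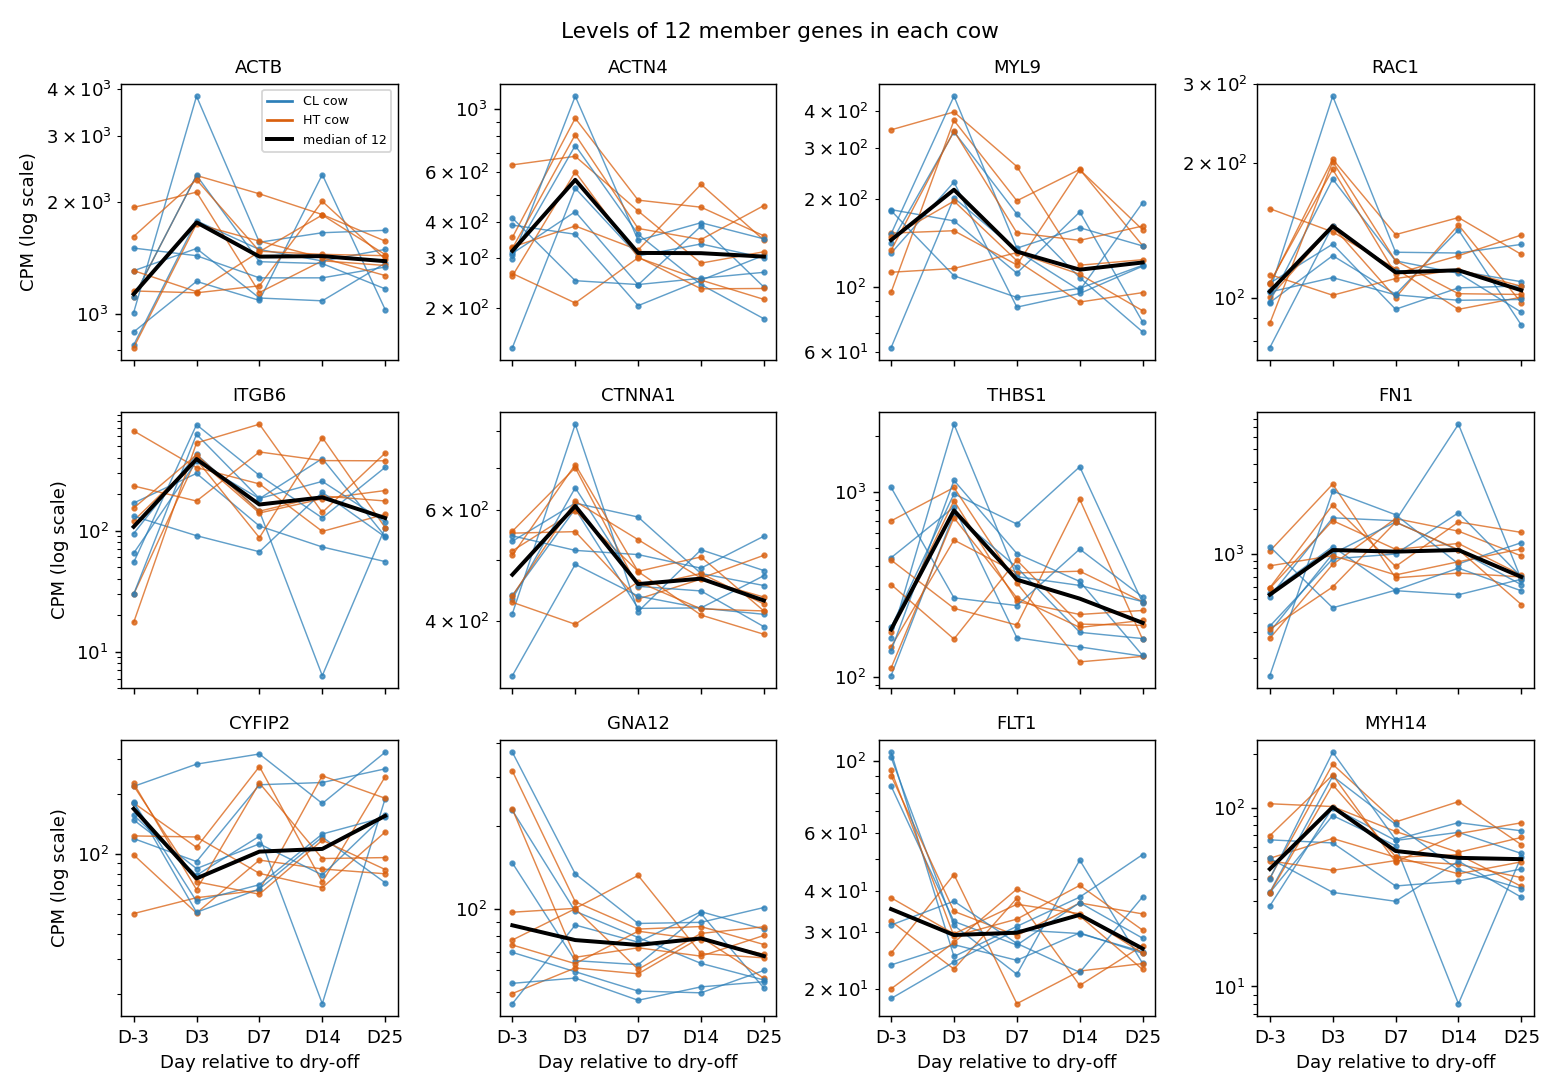
Each thin line follows 1 cow (blue CL, orange HT) over 5 days, with CPM on a log axis, and the black line is the median of 12 cows. ACTB, ACTN4, MYL9, RAC1, ITGB6, CTNNA1, THBS1 and MYH14 peak at D3, while FN1 rises at D3 and then stays level to D14. CYFIP2 dips at D3, and the highest GNA12 and FLT1 values are at D-3. The deep D14 points of ITGB6, CYFIP2 and MYH14 and the FN1 peak are the library of cow 7965.

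Of the focal adhesion plaque only 4 of 10 symbols had values. ZYX, a tension-sensing LIM protein, had a lowest, median and highest level of 60.9, 118.3 and 256.2 CPM at D-3 and of 102.9, 186.8 and 402.8 CPM at D3, and 11 cows were lower at D7. PARVA, a parvin that links integrins to actin, was 1.25-fold higher at D3. CAPN2, a calpain that cuts adhesion proteins, had log2 fold changes of 0.50 ± 0.18 and -0.52 ± 0.18, neither of which passed without the cow block. TLN2, a talin that activates integrins, went against these. It was lower at D3 in 11 of 12 cows, with medians of 71.4 CPM at D-3 and 40.5 CPM at D3, and its widely expressed relative TLN1 has no value here.

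The cell-cell junction genes were all on the positive side at D3, with 6 of 8 past the threshold, and all on the negative side at D7 vs. D3, with 5 past it. CTNNA1, the alpha-catenin that couples cadherins to actin, had a lowest, median and highest level of 327.9, 473.9 and 555.2 CPM at D-3, 395.5, 608.7 and 820.3 CPM at D3 and 414.2, 457.9 and 584.7 CPM at D7. It was lower at D7 in 11 cows. CTNND1, the p120 catenin that keeps cadherins at the membrane, changed less, by 0.11 ± 0.09 and -0.31 ± 0.09 on the log2 scale. NECTIN4, a nectin at a locus shared with ARHGAP30, TSTD1 and USF1, and VAPA, a membrane protein of vesicle traffic, were 1.25-fold and 1.34-fold higher at D3. F11R, the junctional adhesion molecule A, was 1.41-fold lower at D7 vs. D3, and CLDN15, a pore-forming claudin, was 1.55-fold lower in 11 cows. SSX2IP, which binds afadin at adherens junctions, had medians of 12.9, 17.5 and 13.2 CPM at D-3, D3 and D7. YBX3, a tight junction associated DNA-binding protein, went below its starting level. Its median was 142.0 CPM at D-3, 177.0 CPM at D3, a lower level at D7, and 104.0 CPM at D25, when 10 of 12 cows were lower than at D-3.

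Growth factors and receptors held 3 members upregulated and 4 downregulated at D3. EGFR and INSR, receptors of epidermal growth factor and insulin, were 1.81-fold and 1.30-fold higher at D3, and the ligand gene PDGFA 1.59-fold. PDGFA was lower at D7 in all 12 cows. FLT1 and KDR, receptors of vascular endothelial growth factors, the growth factor gene VEGFC and the fibroblast growth factor homologue FGF12 were lower at D3 by 1.81-fold, 1.93-fold, 1.49-fold and 2.16-fold. FLT1 had a lowest, median and highest level of 18.7, 35.2 and 106.3 CPM at D-3, and 23.0, 29.3 and 44.9 CPM at D3. Its log2 fold change with library sizes alone was -0.00 ± 0.14, and none of the downward calls of members at D3 vs. D-3 held at that scaling. As with GNA12, the D-3 values fell in 2 ranges, 83.7 to 106.3 CPM in the 5 libraries with over 40% milk protein counts and 18.7 to 38.1 CPM in the other 7. KDR at D-3 stood at 254.7 to 371.3 CPM in the same 5 and 58.9 to 147.2 CPM in the other 7. The split was not confined to downward members. ARPC5, higher at D3, had 142.3 to 205.3 CPM in the same 5 and 235.1 to 264.4 CPM in the other 7. SMAD3, INSR and NECTIN4, also upward calls at D3 vs. D-3, were likewise lower in the 5 without overlap. IQGAP3 was split too, at 0.110 to 2.12 CPM and 5.335 to 20.5 CPM. The endothelial marker EMCN, the only one of its list with a locus, had 22.9 to 64.7 CPM before dry-off and 15.4 to 40.7 CPM at D3, and its part in the result was not tested.

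The kinases, lipid signalling and transcription genes were the group with the most negative values, 7 of 11 at D3 vs. D-3. TCF7L2, a partner of beta-catenin on DNA, was lower at D3 in all 12 cows, with medians of 81.9 CPM at D-3 and 61.2 CPM at D3. PIP4K2B was 1.24-fold and PIP5K1B 1.5-fold lower, the last at a locus shared with FAM122A. PIP4K2B was lower at D3 in only 6 of 12 cows, and its D-3 levels were 113.9 to 133.6 CPM in the 5 libraries rich in milk protein reads and 63.0 to 82.8 CPM in the other 7. These enzymes act on phosphoinositides, the membrane lipids that anchor many actin regulators. MAPK3, the kinase ERK1, ran opposite to them, with medians of 68.0, 98.5 and 71.8 CPM at D-3, D3 and D7 and lower levels at D7 in 11 cows, at a locus shared with GDPD3. SMAD3, which carries TGF-beta signals, was 1.45-fold higher at D3 in 9 cows. MAPK8, NLK and PIKFYVE, all kinase genes, did not pass at D3 vs. D-3, with log2 fold changes of -0.28 ± 0.11, -0.23 ± 0.10 and -0.37 ± 0.15. With library sizes alone these were 0.21, 0.22 and 0.17, so their sign depended on the scaling. PIK3R2, a regulatory subunit of PI3-kinase at a locus shared with MAST3, had medians of 101.6, 109.0, 133.6, 132.4 and 128.8 CPM over the 5 days and was higher at D25 than at D-3 in 11 cows.

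Against D-3, 5, 16 and 6 of the 69 members passed at D7, D14 and D25, which is near the shares of all loci given below. D-3 is again a set of samples that chose most of the members. Of the 40 members upregulated at D3, FN1 alone was higher than at D-3 at D7, 8 at D14 and 1, ARHGEF6, at D25, and YBX3 was lower at D25. Of the 10 downregulated, 2, 5 and 3 were lower on these days, and GNA12 and FLT1 were among them on each day, with log2 fold changes at D25 vs. D-3 of -1.06 ± 0.24 and -0.89 ± 0.21. Over all loci 1.34% passed upward and 7.12% downward at D7, 8.46% in all. At D14 the shares were 8.23% and 11.3%, 19.5% in all, and at D25 they were 3.96% and 9.16%, 13.1% in all. Over the 69 members the median log2 fold change was 0.01, 0.05 and -0.06 on the 3 days. These counts depend on the scaling. With library sizes alone 0, 32 and 27 members passed on the 3 days, none of them downward, with medians of 0.45, 0.50 and 0.44 over the members and 0.41, 0.43 and 0.48 over all loci. GNA12 and FLT1 then had log2 fold changes of -0.04 ± 0.14 and 0.09 ± 0.14 at D25 vs. D-3, and neither passed on any of these days. Without the D14 library of cow 7965, 9 members passed at D14 in place of 16, and of the 8 members higher at both D3 and D14, ARHGEF6, ARPC2, ARPC5 and FN1 were the 4 that still passed. Leaving out 1 cow moved the 5 members that passed at D7 to between 1 (8541 or 8564) and 9 (8513), with 3 without 7965 and 2 without 8647 or 8713. At D14 the number was 5 without 7965, 8 without 8541 and 9 without 8564, 8647 or 8713, and at D25 it was 3 without 8564 in place of 6.

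Markers of other compartments moved in the same days. Of the 5 myoepithelial and smooth muscle markers with a locus, out of 9 listed, ACTA2, TAGLN, CNN1 and KRT5 were higher at D3 and lower at D7, and their summed level with MYH11 was 554 to 3473 CPM at D-3, 1123 to 4661 CPM at D3 and 905 to 2473 CPM at D7. The keratin sum was 699 to 1798 CPM at D-3, 733 to 5221 CPM at D3 and 508 to 1321 CPM at D7. The 6 secretory markers with a locus, of 9 listed, were all lower at D3. The part of these cell types in the members' values was not tested. Of 147 other genes listed for the same pathways, 21 had a locus, since the gene tables were held only in part and in the order of the choosing comparisons. Of these 21, 19 had a positive log2 fold change at D3 vs. D-3 and 4 passed, among them ITGA3, LAMA3 and MYH9, and at D7 vs. D3 19 were negative and 2 passed. The marker symbols were paired through the same gene tables. Nothing can be read from how many genes of either kind of list moved in these 2 comparisons.

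The step from D14 to D25 used no sample that chose the members. No member passed the FDR threshold there in edgeR's quasi-likelihood test, and the smallest FDR was 0.570, where 0.0612% of all loci passed. At an unadjusted p under 0.05 there were 8 members of 69, all lower at D25, where 3.63% of all loci had such a p, and DESeq2 likewise gave 8 and no call. No member was higher or lower in at least 11 of the 12 cows, as 0.693% and 0.503% of all loci were. The median log2 fold change of the members was -0.12, with 56 of 69 below 0. Over all loci the median was 0.01, and 51.8% of loci were above 0. The cows differed, with a median within-cow difference over the members from -0.49 in cow 7965 to 0.11 in cow 8060. The members lower at D25 numbered from 22 of 69 in cow 8060 to 48 in cows 8564 and 8647. FN1 had the smallest p. Its lowest, median and highest level was 532.0, 1059 and 7352 CPM at D14 and 457.7, 700.0 and 1389 CPM at D25, it was lower at D25 in 9 of 12 cows, and its log2 fold change was -0.99 ± 0.33 (exact sign-flip p = 0.0308, two-sided and unadjusted, 12 cows). THBS1 went from 120.4, 264.8 and 1370 CPM to 128.9, 195.9 and 270.3 CPM, lower in 9 of 12 cows, with -1.03 ± 0.37 (exact sign-flip p = 0.0161). The highest D14 values of both were in the library of cow 7965. With the cow as a block no locus passed in place of 9, and 6 members had an unadjusted p under 0.05 beside 5.14% of all loci. Markers of other compartments also had negative values at this step without passing. The fibroblast gene DCN, the only one of its list with a locus, had a log2 fold change of -0.73 ± 0.24 with an FDR of 0.570, and its range was 561 to 5396 CPM at D14 and 643 to 1035 CPM at D25. The adipocyte gene ADIPOQ had -1.19 ± 0.45, and the 3 adipocyte markers with a locus summed to 54.6 to 741.5 CPM and then 73.2 to 312.6 CPM. The median of the 5 myoepithelial and smooth muscle markers was -0.36, with sums of 776 to 2574 CPM and then 664 to 1932 CPM, and none of these lists held a call. The part of these cell types in the members' values was not tested.

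Without that library the median of the members was -0.06, with 52 of 69 below 0, and 1 member had an unadjusted p under 0.05, where 0.782% of all loci did. FN1 then had a log2 fold change of -0.43 ± 0.28 and THBS1 -0.67 ± 0.35. PFN2, chosen here after its values were seen, had the smallest exact p of the 8, with 0.00928 over 12 cows, of which 10 were lower, and kept -0.46 ± 0.25 without the library. MYH2, the third by p in the fit, was at 0 to 9.65 CPM at D14 and 0 to 0.759 CPM at D25, with an exact sign-flip p of 0.335. A single HT cow, 8314, held the D14 level of 9.65 CPM, and without this cow the log2 fold change of MYH2 was 0.15 in place of -2.32.

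**Figure D3:**
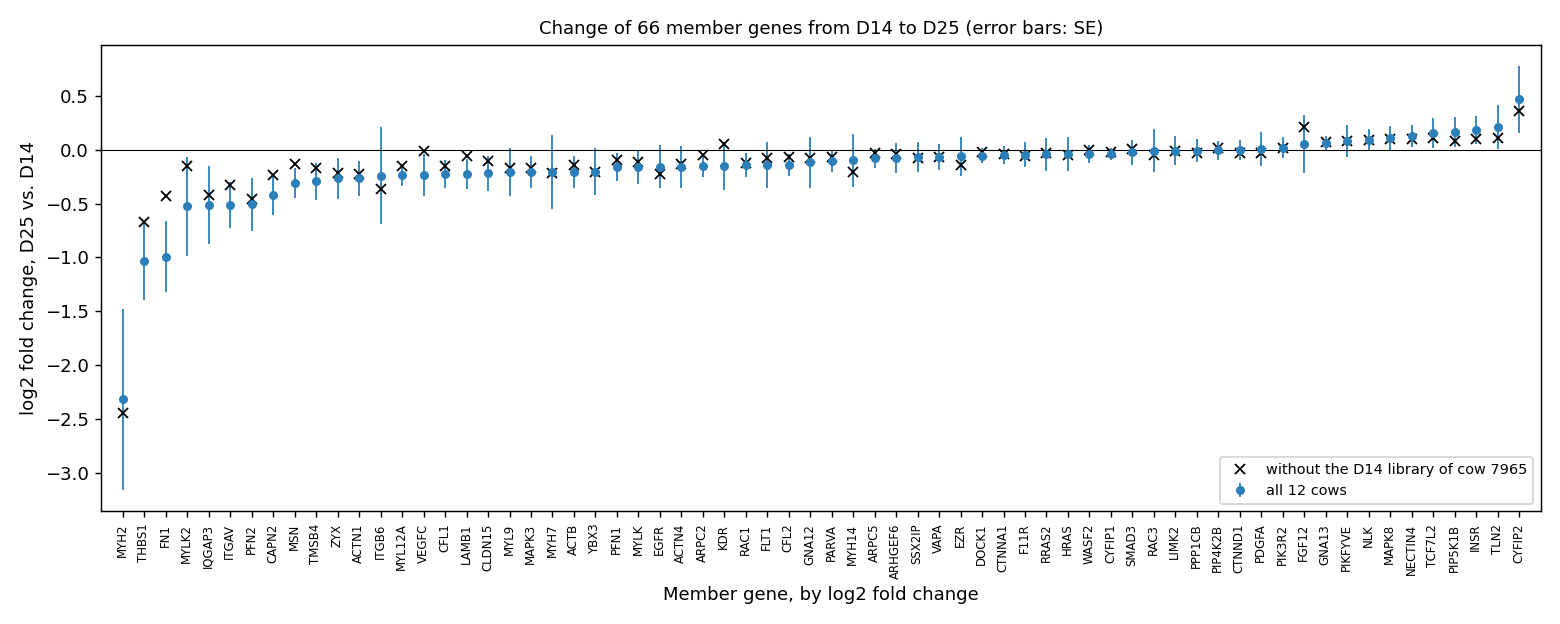
Blue points give the log2 fold change at D25 vs. D14 of each of 66 members with its SE (12 cows), in order of size, and crosses give the same without the D14 library of cow 7965. Most points lie slightly below 0, and for FN1, THBS1, CAPN2 and MSN the cross is nearer to 0 than the point.

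From D7 to D14, which shares the D7 samples with a comparison that chose members, no member and no locus passed (0.0% of all loci). At an unadjusted p under 0.05 there were 2 members, MYH2 and TMSB4, and 1.75% of all loci, and DESeq2 also gave 2 members and no call. TMSB4 had a lowest, median and highest level of 2.06, 2.58 and 3.14 CPM at D7 and 2.04, 2.93 and 6.29 CPM at D14. It was higher in 10 of 12 cows, with a log2 fold change of 0.34 ± 0.17 (exact sign-flip p = 0.0620). ARPC2, the third by p, was higher in 8 of 12 cows by 0.20 ± 0.10, with an exact p of 0.0801, and by 0.09 ± 0.09 without the D14 library of cow 7965. MYH2 was higher in 6 cows and lower in 6. No member was higher or lower in at least 11 cows, as 0.156% and 0.15% of all loci were. The median over members was 0.02, with 40 of 69 above 0. Over all loci the median was 0.00, and 51.8% of loci were above 0. With the cow as a block no member had an unadjusted p under 0.05, where 1.56% of all loci did. Without the D14 library of cow 7965 the log2 fold change of TMSB4 was 0.21 ± 0.16, and without HT cow 8314 that of MYH2 was -0.94 in place of 1.81.

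HT and CL cows did not differ in any member past the FDR threshold at any day, and no other locus passed either (0.0% of all loci on each of the 5 days). In edgeR's quasi-likelihood test the members with an unadjusted p under 0.05 numbered 0, 0, 2, 1 and 2 in the order of the days, and in DESeq2 1, 0, 2, 0 and 2. DESeq2 called no member either, and over all loci it called 3 at D7 and 1 at D25. Over all loci the share with such a p was 2.02%, 0.659%, 4.61%, 1.69% and 2.25%. No member had HT and CL values that did not overlap, on any day, against 0.0544%, 0.0136%, 0.143%, 0.0408% and 0.068% of all loci. The members' median log2 fold change, HT vs. CL, was 0.11 before dry-off, 0.02 at D3 and 0.05, -0.01 and 0.04 on the 3 later days. The median SE of a member was 0.23, 0.25, 0.16, 0.21 and 0.16, so differences of that size were not resolved with 6 cows a group, and a missing call does not show that the groups were alike. With library sizes alone the median at D7 was -0.10, so its sign depends on the scaling. Without the D14 library of cow 7965 the median at D14 was 0.07, with 49 of 69 members above 0. With that library 34 members and 48.1% of all loci were above 0.

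At D7 ACTN4, the alpha-actinin, had a lowest, median and highest level of 204.0, 273.3 and 363.0 CPM in CL cows and of 300.3, 350.1 and 478.2 CPM in HT cows. The log2 fold change was 0.38 ± 0.18 with an FDR of 0.959 and an exact permutation p of 0.0584 (two-sided, unadjusted, 6 against 6 cows). KDR, the endothelial receptor, stood at 90.5, 109.5 and 120.9 CPM in CL and 108.7, 124.3 and 157.0 CPM in HT cows, with an exact permutation p of 0.0823. Other markers leaned the same way at D7 without passing. All 5 myoepithelial and smooth muscle markers with a locus had positive log2 fold changes, ACTA2 of 0.53 ± 0.17 and TAGLN of 0.70 ± 0.28, the keratins KRT19 and KRT7 had 0.50 ± 0.23 and 0.02 ± 0.23, and the endothelial marker EMCN had 0.20 ± 0.16. The median of the 6 secretory markers was 1.91. Their part in the values of ACTN4 and KDR was not tested. MYH2 was at most 1.16 CPM in all 12 cows at D7. Its medians were 0.0811 CPM in CL and 0.392 CPM in HT cows, with an exact permutation p of 0.0693.

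At D25 IQGAP3 had 4.44, 7.24 and 10.6 CPM in CL cows and 8.26, 9.95 and 19.95 CPM in HT cows, with a log2 fold change of 0.61 ± 0.25 and an FDR of 0.998, and its exact permutation p of 0.0390 (unadjusted) was the only one under 0.05 among the named members. The groups overlapped between 8.26 and 10.6 CPM, and without HT cow 8513, which held the 19.95 CPM, the log2 fold change was 0.38. MYH2 was at most 0.759 CPM in all 12 cows, with an exact permutation p of 0.210.

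At D14 MYH2 and VEGFC were among the members with the smallest p, and each moved with 1 library. MYH2 had a median of 0.134 CPM in CL and 0.147 CPM in HT cows, and its log2 fold change of 3.58 fell to 0.07 without HT cow 8314. VEGFC had 5.67, 9.85 and 26.5 CPM in CL and 5.87, 8.53 and 10.2 CPM in HT cows, with an exact permutation p of 0.381. Its highest CL value was the library of cow 7965, without which its log2 fold change was -0.10 in place of -0.50. Without this library FN1 turned from a log2 fold change of -0.85 ± 0.58 to 0.17 ± 0.30, and the count of members with an unadjusted p under 0.05 went from 1 to 2, MYH2 and INSR.

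**Figure D4:**
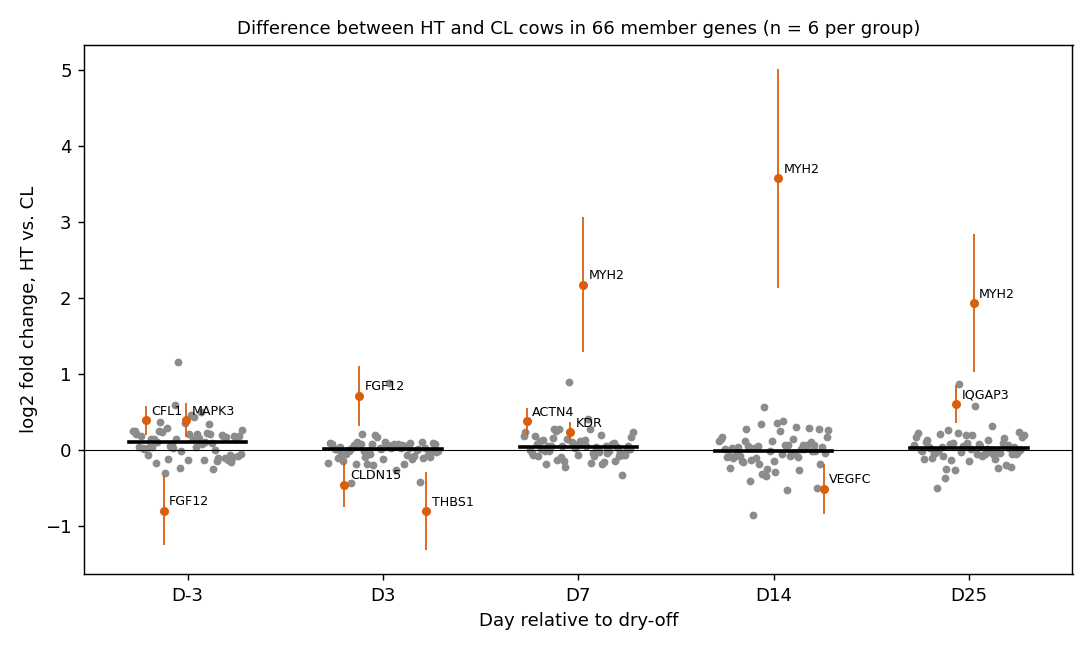
Each grey point is the log2 fold change, HT vs. CL (6 cows each), of 1 of 66 members on 1 day, black bars are medians over all 69 tested members, and orange points with SE bars mark members among the 3 smallest p of the day. The medians lie between -0.01 and 0.11, most points are within 0.5 of 0, and MYH2, with few reads, is the farthest from 0 at D7, D14 and D25.

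Before the treatments began, at D-3, the cows later assigned to HT and CL differed by amounts of the same order. CFL1, the non-muscle cofilin, had 193.8, 244.3 and 292.3 CPM in the cows later cooled and 210.9, 306.1 and 444.6 CPM in those later heat-stressed, with an exact permutation p of 0.0606. MAPK3 and FGF12 followed, with exact permutation p of 0.119 and 0.262. At D3, FGF12 had medians of 0.815 CPM in CL and 1.37 CPM in HT cows, THBS1 903.3 and 637.6 CPM, and CLDN15 4.72 and 3.64 CPM, with exact permutation p of 0.115, 0.184 and 0.199. The direction of FGF12 at D-3 was opposite to that at D3, with log2 fold changes of -0.79 ± 0.45 and 0.72 ± 0.40. In the test of treatment by time no member passed, and FGF12 alone had an unadjusted p under 0.05 in edgeR's quasi-likelihood test over all 60 libraries, with an FDR of 1.0, where 0.578% of all loci had such a p. DESeq2 also gave 1 such member. The next member by p was MYH2.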

How the data were processed

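RNA of 60 mammary biopsies was sequenced from poly(A) libraries of a kit that does not mark strand, so overlapping antisense reads cannot be told apart. The deposited values are counts of reads per locus, which the authors made with Trim Galore 0.4.1, TopHat2 2.0.13, Cufflinks 2.2.1 with ENSEMBL genes, and HTSeq. The build is UMD3.1 per the labels and bosTau7 per the study's methods, and no coordinates are given here. Loci that reached 1 CPM in 6 or more libraries were tested with TMM factors and edgeR 4.0.16 (R 4.3.3), by glmQLFTest with Benjamini-Hochberg FDR over all 14714 loci. Days were compared by fitting 1 mean per day to all 60 samples, and HT vs. CL in the 12 samples of a day. CPM values are TMM-scaled, and single members were tested on log2 CPM (prior count 2) by exact two-sided sign-flip tests over 4096 sign changes or permutation tests over 924 choices of 6 of 12 cows.

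Samples were paired by the cow number in the labels. Deviations from the mean of the 6 cows of a treatment on a day correlated at 0.293 within a cow and -0.0253 between cows. Named were members listed for both comparisons, members with a listed paralog, the 3 members with the smallest p per test, and ACTB. Others were named after their values were seen, to describe each role. The values of 3 tested members are not reported here singly, and counts and medians include them. The members and lists were chosen with earlier results of these data known. Gene tables paired symbols with loci and were held in part, and 7 of the 70 member loci join several gene identifiers. DESeq2 1.42.0, other normalizations and filters, the cow block and single cows left out were alternatives. The fits for D25 vs. D14 and for HT vs. CL at D7 were tried on simulated counts. These counts took their spread from D25, had no correlation within cows, and covered no other comparison. Python 3.11.15 (numpy 2.4.6, pandas 2.3.3, matplotlib 3.10.9) made tables and figures.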

Additional observations from a re-analysis of the deposited data

Results flagged for a closer look

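Among the HT and CL groups of 6 cows behind the members reported here among the 3 with the smallest p for HT vs. CL on each day and the share of counts on member loci, 4 groups held a cow far from the other 5, by a gap of more than 0.625 of the group's range. Chance gives such a gap in about 1 of 20 groups of normally distributed values. The members were picked for a small p and some lie near 0 CPM, so that rate need not hold here. With many groups screened, some such gaps come by chance. The 4 groups were MAPK3 in HT cows at D-3 (135.3 CPM, group median 68.8 CPM), MYH2 in HT cows at D14 (9.654 CPM, median 0.147 CPM), VEGFC in CL cows at D14 (26.45 CPM, median 9.85 CPM) and IQGAP3 in HT cows at D25 (19.95 CPM, median 9.95 CPM). The D14 value of VEGFC is the library of cow 7965, in which the keratin sum was 6.19 CPM. The IQGAP3 value is cow 8513. No tested member had all HT cows moving one way and all CL cows the other way between neighbouring time points.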

How the results depend on the processing

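Among the counts of members past the threshold, the medians over members and the numbers of single members with a small exact p, 294 values from alternatives were close to those reported (counts within 1.5 times) and 33 were not. The close values include counts of 0 that stayed at 0, as for HT vs. CL on each day with 1 cow left out. The 294 therefore does not measure how stable the other counts were. At D3 vs. D-3 (50 members) the count was 24 with only the 24 samples of those days and 32 to 52 with 1 cow left out. At D7 vs. D3 (22 members) it was 2 with library sizes alone and 4 to 28 with 1 cow left out. Labels pair samples of the same cow. With the cow as a block the counts were 60 and 33, and 36 at D7 vs. D3 with the late libraries of 8513 and 8660 exchanged as well. Against D-3, the counts at D7, D14 and D25 (5, 16 and 6 members) had their alternatives chosen after the data were seen. They were 1 to 9, 5 to 23 and 3 to 9 with 1 cow left out, 0, 32 and 27 with library sizes alone, 6, 19 and 9 with the block, 18, 28 and 13 with the block and without cows 8513 and 8660, and 8, 20 and 10 with the block and their late libraries exchanged. The count at D7 was 3 over loci of 1 gene identifier, and that at D14 was 9 without the D14 library of cow 7965. No member passed D14 vs. D7, D25 vs. D14 or treatment by time with or without the block, but over all loci 9 calls at D25 vs. D14 became 0 with it. The median of HT vs. CL at D7 went from 0.05 to -0.10 with library sizes alone. Of the members chosen as the 3 with the smallest p of a test, MYH2 changed sign without cow 8314, at -0.94 for D14 vs. D7 (range -0.94 to 2.39 with 1 cow left out) and at 0.15 for D25 vs. D14 (range -2.84 to 0.15), and 292 other values of such members kept their direction and side. FN1, which was not among the 3 for HT vs. CL at D14, went from -0.85 to 0.17 there without the D14 library of cow 7965. The cause of these differences was not tested. Adding the unpaired symbols through a reference table was not run, since the table could not be joined to the identifiers of the count file. With 6 cows a group, no permutation p can fall below 0.00216. MYH2, MYH7 and MYLK2 had few reads, so their fold changes depend on single libraries and on the prior count.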
